A study of Mus musculus with 8 samples.

Results

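The neurotrophin system was examined in a map of chromatin carrying the transcription factor KLF13, through 7 genes: the ligand genes Bdnf, Ntf3 and Ntf5, the receptor genes Ntrk2, Ntrk3 and Ngfr, and the sorting receptor gene Sort1. Peaks were taken when the gene symbol that the authors assigned to them was one of these names. The deposited list held 9506 peaks, and 7 of them met this rule. They fell at 5 of the 7 genes: Ntf5 and Ntrk3 had 2 peaks each, Ntrk2, Ngfr and Sort1 had 1 each, and Bdnf and Ntf3 had none. Of all 21900 protein-coding genes in the RefSeq gene table, 33.6% had an assigned peak.

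The material was HT22, an immortalised mouse hippocampal neuronal line whose genotype is given as HT22-BirA, meaning that it stably makes the biotin ligase BirA. All cells, those behind the inputs included, had been transfected with the pTO-Klf13Bio plasmid, which makes KLF13 that BirA can biotinylate, and chromatin was taken 24 h later. There were 4 libraries from chromatin streptavidin precipitation (ChSP) and 4 input libraries without precipitation. No library from cells lacking the tagged protein was among them, so capture that does not depend on KLF13 cannot be told apart from KLF13 at any peak. KLF13 was supplied by transfection in these cells, and what follows describes the transfected, tagged protein. The list gives each peak 1 fold of ChSP over input and 1 p-value for all 8 libraries together. Folds therefore carry no replicate error, the depth behind them is unknown, and no difference between 2 peaks could be tested. A peak list measures no RNA, so neither the neuronal label of the line nor the expression of these genes could be checked.

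Neurotrophins are secreted growth factors that keep neurons alive, shape their dendrites and tune their synapses. Each mature ligand binds a Trk receptor tyrosine kinase, which signals survival and growth, while the uncleaved precursors bind a complex of the p75 receptor and sortilin, which can signal cell death. In the hippocampus, BDNF acting on TrkB is best known for its part in synaptic plasticity and memory. KLF13 is a zinc finger protein that binds GC-rich DNA of the GC-box and CACCC-box type.

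The RefSeq promoter table (GRCm38.p6) held windows for 4 of the 7 genes, 11 windows in all: 7 separate starts of Bdnf, 2 of Ntf3, and 1 each of Ntrk2 and Ngfr. Each window runs from 250 bases before a start to 50 after it. Of these 11 windows 1 overlapped a peak, that of Ngfr, and 19.8% of all 32851 windows in the table did. Ntf5, Ntrk3 and Sort1, which each had a peak, had no window, and 7 of the 11 windows belong to Bdnf. The 1 of 11 therefore does not stand for the 7 genes. The sequences that follow are the 250 bases before the start, read 5′ to 3′ along the gene. They were chosen to set the window under a peak beside windows without one, namely the Bdnf start with the most GC-box matches and the Bdnf start whose whole window held no motif, the first start of Ntf3, and the Ntrk2 start that lies near a peak but not under it. Capitals mark every match on either strand to 3 motifs. The first is the GC box GGGCGG, which reads CCGCCC on the other strand. The second is the CACCC box, which reads GGGTG on the other strand. The third is CACGCCC, a Krüppel-like core, which reads GGGCGTG on the other strand. Matches may share letters, as CACCC and CCGCCC do in the second Bdnf start.
Ngfr, chr11:95587699-95587948, minus strand: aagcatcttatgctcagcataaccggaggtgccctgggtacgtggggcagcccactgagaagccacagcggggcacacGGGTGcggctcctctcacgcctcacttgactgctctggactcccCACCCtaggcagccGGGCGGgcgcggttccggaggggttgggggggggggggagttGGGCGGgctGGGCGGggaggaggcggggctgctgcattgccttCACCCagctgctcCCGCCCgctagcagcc
Ntrk2, chr13:58806319-58806568, plus strand: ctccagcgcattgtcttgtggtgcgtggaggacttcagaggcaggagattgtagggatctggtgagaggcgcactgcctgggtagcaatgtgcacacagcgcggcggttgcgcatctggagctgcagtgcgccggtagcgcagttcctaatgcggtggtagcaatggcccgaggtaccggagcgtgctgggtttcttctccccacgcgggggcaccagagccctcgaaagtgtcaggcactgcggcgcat
Ntf3 start 1, chr6:126166745-126166994, minus strand: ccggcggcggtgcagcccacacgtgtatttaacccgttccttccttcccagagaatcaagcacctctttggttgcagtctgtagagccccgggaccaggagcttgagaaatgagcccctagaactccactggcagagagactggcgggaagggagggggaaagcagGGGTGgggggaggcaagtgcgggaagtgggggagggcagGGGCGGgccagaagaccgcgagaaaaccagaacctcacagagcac
Bdnf start 2, chr2:109676782-109677031, plus strand: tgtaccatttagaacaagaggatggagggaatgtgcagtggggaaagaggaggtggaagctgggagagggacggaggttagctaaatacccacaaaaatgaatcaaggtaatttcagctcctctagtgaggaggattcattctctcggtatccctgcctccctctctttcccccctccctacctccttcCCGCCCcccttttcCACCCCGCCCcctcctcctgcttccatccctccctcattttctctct
Bdnf start 6, chr2:109709133-109709382, plus strand: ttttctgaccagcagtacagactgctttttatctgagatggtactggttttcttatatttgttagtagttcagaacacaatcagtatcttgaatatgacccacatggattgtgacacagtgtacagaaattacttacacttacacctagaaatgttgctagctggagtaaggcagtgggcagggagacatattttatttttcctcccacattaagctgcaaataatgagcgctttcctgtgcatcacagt
The Ngfr sequence held 4 matches to GGGCGG and 3 to CACCC in its 250 bases, and its GC content was 70.4%. The second Bdnf start held 2 and 1 with a GC content of 53.6%, and the sixth held none with 39.2%. The first Ntf3 start held 1 and 1 with 62.0%, and the Ntrk2 sequence held none with 62.8%. Both Bdnf starts were chosen by their motif counts, so their contrast with Ngfr in these counts was set by that choice.

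Among the ligands, Ntf5 had peaks, and Bdnf and Ntf3 had none. Ntf5 (ENSMUSG00000074121) encodes the neurotrophin also called NT-4, which shares TrkB with BDNF. Its stronger peak lay over the TSS at chr7:45413401-45414000, from 294 bp before to 305 bp after it, with the authors' fold at 32.0 (p = 5.92e-13, adjusted p = 4.35e-10). This fold was higher than that of 81.8% of all deposited peaks and of 91.6% of the 1387 peaks of the same 600 bp width. A second, 400 bp wide peak lay 1500 bp further on at chr7:45415501-45415900, inside the 3485 bp gene and 1806 bp from the TSS. Its fold, 18.2, was the lowest of the 7 peaks (the authors' p = 2.11e-07). Genes with 2 or more assigned peaks made up 5.40% of protein-coding genes, and Ntf5 and Ntrk3 were both of this kind.

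Ntf5 was also the member with other genes' peaks close by. Within 50 kb of its bounds lay promoter peaks assigned to Kcna7, a potassium channel gene, 6.70 kb away with a fold of 29.8, to Lin7b, a scaffold gene, 43.1 kb away with 18.3, and to Bax, the cell death effector gene, 49.3 kb away with 13.6. None of the other 6 genes had a peak of another gene within 50 kb.

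Bdnf encodes the most abundant neurotrophin of the adult brain, and is transcribed from many alternative first exons. None of its 7 windows came close to a peak. The gene lies on chromosome 2 from 109674700 to 109727043, and the peak nearest to it was 163658 bp beyond its end, at chr2:109890701-109891300, assigned to the scaffold gene Lin7c with a fold of 21.5. The distances of the 7 windows from that peak ran from 167731 to 215952 bp. A nearest peak this far from the gene was not rare: 23.2% of protein-coding genes had a nearest peak that was farther away, and the median distance over all genes was 20692 bp. Ntf3, the gene of neurotrophin 3, which acts mainly on TrkC, lies on chromosome 6 from 126101412 to 126166772. Its nearest peak was 787412 bp away, at Ltbr, a receptor gene of the tumour necrosis factor family, with a fold of 18.4, and 8.18% of genes had a more distant one. No peak in this list says only that none passed the authors' threshold, whose largest p was 9.99e-06. At unknown depth, weaker binding there was not detectable.

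Receptor genes all had a peak within 1 kb of the TSS of the transcript that the authors assigned. That was so for 5 of the 7 genes (Ntf5, Ntrk2, Ntrk3, Ngfr and Sort1), against 30.9% of protein-coding genes. Ngfr (ENSMUSG00000000120) encodes the p75 receptor, which binds all neurotrophins and their precursors. Its 600 bp peak at chr11:95587401-95588000 was nearly centred on the TSS, from 302 bp before to 297 bp after it. The fold was 19.1 (the authors' p = 6.94e-12, adjusted p = 4.29e-09), with 41.8% of all peaks and 40.3% of those of the same width lower. The GC boxes shown above lie inside this peak.

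Ntrk3 (ENSMUSG00000059146) encodes TrkC, the receptor of neurotrophin 3. Its peaks form a pair with 100 bp between them. The wide one, 1100 bp at chr7:78577801-78578900, reached from 1062 bp before the TSS to 37 bp after it, with a fold of 23.6 (the authors' p = 2.51e-09). The narrow one, 300 bp at chr7:78577401-78577700, began 138 bp after the TSS. Its fold was 35.1 (the authors' p = 1.13e-06). The narrow peak thus had the highest fold of the 7 and the second largest p. Of the 847 deposited peaks that were 300 bp wide, 99.8% had a lower fold, and their median fold was 13.1. By p the narrow peak did not stand out among them, since 37.7% had a larger p. In fold the wide peak went the other way: the median of the 413 peaks of 1100 bp was 30.6, with 23.0% of them lower. Its p was also large for its width, and 1.21% of those peaks had a larger p. Of the 187 pairs of neighbouring peaks 100 bp or less apart, 146 differed in width, and in 38 of these (26.0%) the narrower peak had the higher fold. It also had the larger p in 26 of them. Merging peaks less than 1 kb apart makes the Ntrk3 pair 1 region and leaves 6 regions for the 7 genes.

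**Figure D1:**
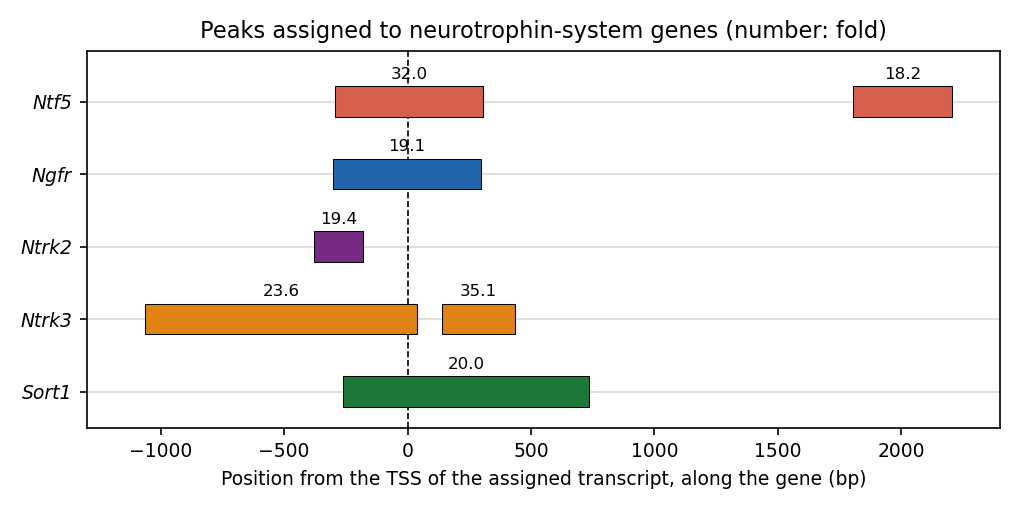
Positions of the 7 peaks (bars) from the TSS of the assigned transcript in bp, along the direction of transcription, for the 5 genes that had any; the number over each bar is the authors' fold of ChSP over input. The bars of Ntf5, Ngfr, Ntrk3 and Sort1 include one that crosses the dashed line of the TSS, the single bar of Ntrk2 lies wholly before it, and the second bar of Ntf5 starts 1806 bp after it.

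Ntrk2 (ENSMUSG00000055254) encodes TrkB, the receptor of BDNF and NT-4. Its only peak, at chr13:58807901-58808100, was 200 bp wide, the smallest width in the list, and lay before the TSS of the assigned transcript, at a distance of -181 bp by the authors' annotation. The fold was 19.4, and the authors gave it a p of 4.25e-06. Of all peaks, 3.93% had a larger p. Among the 547 peaks of this width the fold was high, with 93.2% of them lower and a median of 11.8. The transcript starts inside the gene, whose RefSeq bounds begin at 58806472. The peak lay 1429 bp inside these bounds, and 1283 bp from the window of the RefSeq start whose upstream sequence is printed above. That window held 1 match to GGGCGG, which lay wholly after the 250 bases printed, and its CpG observed over expected was 0.835.

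Which start a gene is given decides some of these calls. The RefSeq bounds of Ntrk3 begin 2134 bp upstream of its wide peak. With a promoter peak defined as any peak within 1 kb of either end of the RefSeq bounds, Ntrk2 and Ntrk3 drop out and the count is 3 of 7 (Ntf5, Ngfr and Sort1), against 31.8% of protein-coding genes. At 3 kb from the TSS the count stayed 5 of 7 (31.6% of genes), and with any peak within 10 kb of the gene bounds it was also 5 of 7 (43.7%). Peaks that overlap the TSS of the assigned transcript were found at 4 of 7, all but Ntrk2 of the 5, against 25.8%.

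Sort1 (ENSMUSG00000068747) encodes sortilin, which carries proBDNF through the secretory pathway and joins p75 in binding neurotrophin precursors. Its peak at chr3:108283801-108284800 was 1000 bp wide and spanned the TSS from 263 bp before to 736 bp after it. The authors' p was 9.28e-15 (adjusted p = 9.25e-12), smaller than at any other of these genes. The fold of 20.0 was above 45.4% of all peaks but low for its width: the median of the 582 peaks of 1000 bp was 29.4, and 15.5% of them were lower.

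**Figure D2:**
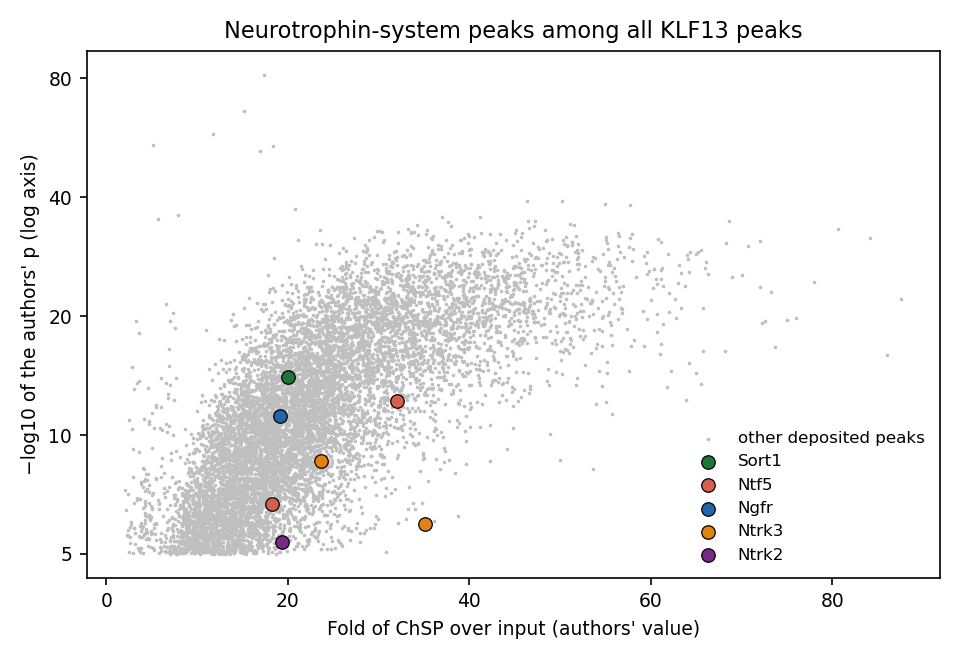
Each point is a deposited peak, with the authors' fold of ChSP over input on the x axis and the negative log10 of the authors' p on a log y axis; coloured points are the 7 peaks of the neurotrophin genes and grey points all others. Sort1, Ngfr and the stronger Ntf5 peak sit within the main cloud, while the narrow Ntrk3 peak, fold 35.1, lies to its lower right and Ntrk2 near the lower limit.

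As a set, the 7 peaks were of ordinary height. Their folds ran from 18.2 to 35.1 with a median of 20.0, against 21.1 over all peaks, and 3 of the 7 were above that median. Taking the highest promoter fold of each gene, the median was 20.0 over the 5 genes and 22.9 over the 6769 genes with a promoter peak. Sort1, Ntrk2 and Ngfr, with 20.0, 19.4 and 19.1, were neighbours in this order, and no error is at hand to tell them apart. By p, 2 of the 7 peaks, those of Sort1 and the stronger of Ntf5, were among the 4753 with the smallest p, where 19.6% of protein-coding genes kept an assigned peak and 18.6% a promoter peak.

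These genes differ widely in length, from 3485 bp for Ntf5 to 401049 bp for Ntrk3, and across the genome longer genes had promoter peaks more often. Protein-coding genes were put in 10 equal classes of length. Within the class of each gene, 57.0% had one for Ntrk2 and Ntrk3, 52.1% for Sort1 and Ntf3, 42.4% for Bdnf, 28.4% for Ngfr and 18.7% for Ntf5. Ntrk2, Ntrk3 and Sort1 had a promoter peak, and Bdnf and Ntf3 none, in classes where such peaks were more frequent than over all genes. Ngfr and Ntf5 had one in classes where they were less frequent. The part of length in these counts was not tested.

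CpG content was the other feature that could be read for both kinds of gene, though only the Ngfr window of the 11 lay under a peak. Windows overlapped by a peak had a median CpG observed over expected of 0.861 and a median GC content of 68.7%, while the windows not overlapped had medians of 0.285 and 50%. Ngfr had 0.607 and 71.7%, so its CpG ratio was below the median of overlapped windows and its GC content above it. The 7 Bdnf windows ran from 0.179 to 0.676 in CpG ratio and from 38.7% to 58.0% in GC content, all below both medians of overlapped windows. However, 6 of them lay above the median CpG ratio of windows not overlapped, 3 above the median GC content of those windows, and 2 had a higher CpG ratio than Ngfr. The Ntf3 windows had 0.444 and 0.751, and Ntrk2, 0.835, was the nearest to the overlapped median of all 11.

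**Figure D3:**
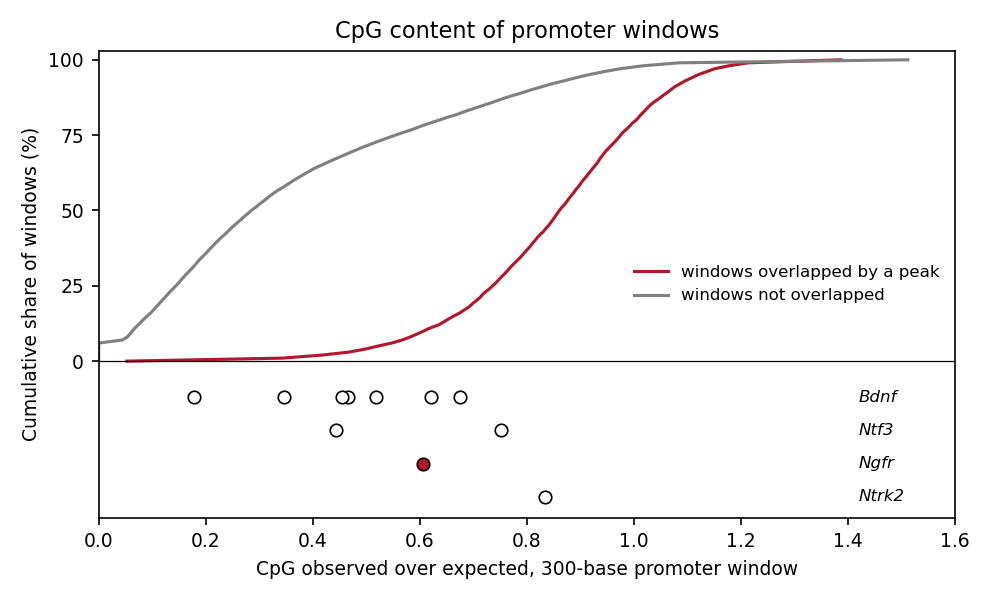
Cumulative share of RefSeq promoter windows (y axis, %) by CpG observed over expected (x axis), for the 6511 windows overlapped by a peak and the 26340 that were not; circles under the curves are the 11 windows of Bdnf, Ntf3, Ngfr and Ntrk2, filled where a peak overlaps. The filled circle of Ngfr, at 0.607, lies among the open circles of Bdnf and Ntf3.

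Over all windows, each of the 3 motifs was more frequent where a peak overlapped. Among the 11 windows of these genes, all 3 also occurred in windows without a peak. GGGCGG on either strand was in 35.7% of all windows, in 82.4% of those overlapped by a peak and in 24.1% of the others. It was in 2 of the 7 Bdnf windows, in both of Ntf3, and in those of Ntrk2 and Ngfr. CACCC on either strand was in 57.5% of all windows, in 67.6% of the overlapped and 55.0% of the others. It was in 6 of 7 windows for Bdnf, in the first of Ntf3 and in that of Ngfr, but not in the second of Ntf3 or that of Ntrk2. The longer CACGCCC was in 8.44% of windows (19.1% of the overlapped and 5.80% of the others) and in 1 of the 11, the first of Ntf3, where it reached past the 250 bases printed above. A match is a run of letters and does not show binding.

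The wider pathway, in 8 lists of 3 to 24 genes, placed these genes in context. The receptor and ligand lists held only the genes already described, with a promoter peak at 3 of 3 receptor genes and at 1 of 3 ligand genes, where 30.9% of all protein-coding genes had one. All 5 sorting receptors of the sortilin family did as well: Sorcs3 had a fold of 23.6, Sort1 20.0, Sorcs1 17.3, Sorcs2 17.1 and Sorl1, named to complete the list, 13.8, with a median of 17.3 against 22.9 over all genes with a promoter peak. Genes that process neurotrophin precursors had one in 6 of 14 (42.9%), not far from the share of all genes, led by the proprotein convertase genes Pcsk7 with 55.9, Furin with 37.5, Pcsk2 with 23.5 and Pcsk5 with 19.6. Pcsk1, and Plat and Plg, the genes of tissue plasminogen activator and plasminogen, had none. The median highest promoter fold of this list was 21.6.

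Downstream of the receptors, Trk adaptors and effectors had promoter peaks at 21 of 24 genes (87.5%, against 30.9% of all protein-coding genes), with a median highest fold of 28.3 against 22.9 over all genes with a promoter peak. Plcg1, the phospholipase that docks on active Trk receptors, had a fold of 48.4, the docking protein gene Gab2 46.2, the ubiquitin ligase gene Nedd4l 45.5 and the adaptor gene Sh2b3 43.0. Shc1, Shc4 and Crkl were without one, but a peak given to another gene lay 172 bp from an end of Shc1. Adaptors and effectors of p75 had them at 8 of 18 (44.4%, nearer to that 30.9%): the kinase gene Mapk8, which encodes JNK1, had 60.5, Psen2, a subunit of the gamma-secretase that cleaves p75, 31.3, the Nogo receptor gene Rtn4r 29.6 and the GTPase regulator gene Arhgdia 28.0. The median highest promoter fold of this list was 27.1. Maged1, Bex3 and Traf6 had no promoter peak. Irak1 and Rhoa, named after their values were seen, counted as without one, but a peak assigned to another gene overlapped an end of each.

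Genes of the transcription regulators of Bdnf had promoter peaks at 15 of 16 (93.8%, against 30.9% of all protein-coding genes). Rest, the repressor of neuronal genes, had a fold of 65.2 and the E-box factor gene Usf2 45.7. The MEF2 factor gene Mef2a had 34.8 and the activity-induced factor gene Egr1 33.0, and Mef2c had none. These are the highest of the list, whose median highest promoter fold was 22.9, against 22.9 over all genes with a promoter peak. Of other neurotrophic factors and their receptors 10 of 18 (55.6%) had a promoter peak, and Pspn, Gfra1 and Cntf had none. The highest folds were 42.8 at the neurturin gene Nrtn, 42.7 at Lif, 23.0 at the shared cytokine receptor gene Il6st and 21.9 at Gfra4. The median highest promoter fold of this list was 18.0, below the 22.9 over all genes with a promoter peak. The lists differ in gene length, with medians from 21240 bp for these other factors to 381018 bp for the sortilin family, and its part in the counts was not tested. When only the 4753 best peaks by p were counted, promoter peaks remained at 0 of 3 for receptors, 1 of 3 for ligands, 1 of 5 for sorting receptors, 2 of 14 for precursor processing, 15 of 24 for Trk adaptors, 5 of 18 for p75 adaptors, 10 of 16 for Bdnf regulators and 5 of 18 for the other factors, against 18.6% of all protein-coding genes.

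**Figure D4:**
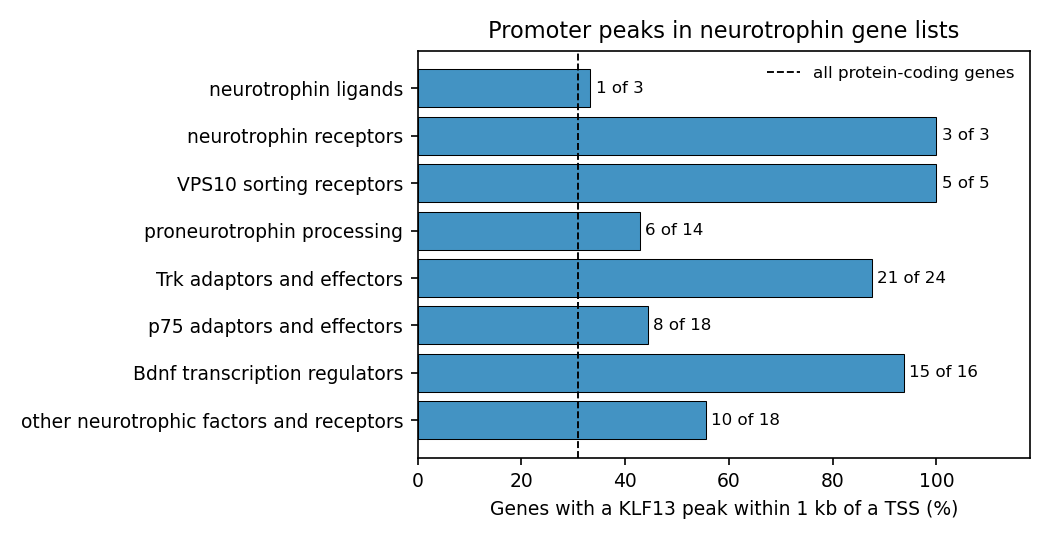
Share of genes with a deposited peak within 1 kb of a TSS (x axis, %) in each of the 8 gene lists, with counts beside the bars; the dashed line is the 30.9% of all protein-coding genes. Ligands, 1 of 3, lie nearest the line, and receptors, 3 of 3, and sorting receptors, 5 of 5, reach the right end.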

How the data were processed

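The source was 1 deposited peak list made by the authors from 4 ChSP and 4 input libraries on GRCm38. Tools listed in the submitters' processing notes, with no roles, are HOMER 4.9.1, ChIPseeker 1.16.1, BWA 0.7.17-r1188 and FastQC 0.11.3. The file's name gives PePr as the peak caller, with settings and library scaling not given in the sources used here. Fold (a linear ratio, ChSP to input), p-value and adjusted p-value are the authors' deposited values. The authors' score equals the fold times 1 constant and was left aside. Widths and distances come from the annotation columns, per the file headers.

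Genes were matched by symbol or gene identifier to the RefSeq gene table (GRCm38.p6), with 21900 protein-coding genes as background, and sequences come from the RefSeq promoter table of the same build. The promoter table held 17492 of these genes. No test was made, since the list has no value per library. Where nothing says that numbered libraries came from separate cultures, they may be technical. Members and gene lists were chosen with earlier results of these data known. From each list, at most 4 genes of highest promoter fold and at most 3 lacking a promoter peak, in list order, are named. Sorl1, Irak1 and Rhoa fall outside this rule and were named after their values were seen. Genes with a peak within 50 kb of a member were also named. The motif counter was tested on simulated sequences. Python 3.11.15, pandas 2.3.3 and numpy 2.4.6 were used. Other genes that the lists were planned to hold are not reported here.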

Additional observations from a re-analysis of the deposited data

How the results depend on the processing

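No paired analysis was possible because each peak has 1 value for all 8 libraries, and for the same reason no library could be left out in turn. The 5 genes with a peak stayed 5 without the 5% widest peaks and with any peak within 10 kb of the gene bounds, and the 5 with a promoter peak stayed 5 without the widest peaks and at 3 kb. Among the 4753 peaks with the smallest p, 2 genes kept an assigned peak and 2 a promoter peak, Sort1 and Ntf5, and the median highest promoter fold moved from 20.0 to 26.0, over fewer genes. With peaks within 1 kb of either gene end, an alternative chosen after seeing the data like the merging of near peaks, 3 genes had a promoter peak. Ranked by p in place of fold, 5 of the 7 peaks changed rank by over 1.5 times. Of the 8 lists, none changed at 3 kb and 5 changed by over 1.5 times with the smallest p. In the 50 bases either side of a start, GGGCGG was in 21.7% of windows, CACCC in 24.7% and CACGCCC in 3.24%.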
